A study of Mus musculus with 6 samples.

Results

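The proteasome subunit genes of mouse heart grafts were examined on 6 oligonucleotide arrays of total RNA, 1 array per group. Members were chosen by symbol, as genes named Psma, Psmb, Psmc, Psmd or Psme followed by a digit. The search found 43 of the 12393 genes measured, on 76 probe sets that each belonged to a single gene. Of the 43 genes, 41 encode subunits, activators or assembly factors of the proteasome. The other 2, Psmc3ip and Psme3ip1, are not among these. The first is a cofactor of meiotic recombination and the second is named for its interaction with Psme3. The inducible set comprised Psmb8, Psmb9, Psmb10 and Psme1. Psme2, the 5th inducible gene, had no probe set of its own, because the only one naming it also listed a second gene, and Psmb11 of the thymus had no probe set of its own either. The constitutive set comprised 31 subunits, 14 of the 20S core and 17 of the 19S cap.

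The arrays were a syngraft from untreated syngeneic control mice, an untreated allograft, and 4 allografts from treated mice. CsA was cyclosporin A, a calcineurin inhibitor, given at 15 mg/kg every 24 h. BH4 was tetrahydrobiopterin, the cofactor of nitric oxide synthases, and ABH4 was its 4-amino analog, both given at 50 mg/kg every 8 h. NIL was N-imino ethyl-L-lysine, an inhibitor of inducible nitric oxide synthase, given at 5 mg/kg every 8 h. The labels give no strain, day of graft removal, vehicle or pooling of grafts. No group had a replicate, so no difference below carries an error or a p-value, and differences between single grafts cannot be told apart from differences between groups. Signals are intensities rescaled to a common array median, and each gene is given by its brightest probe set. Signals under a floor of 34.8 were raised to it, and genes at the floor were kept in the shares over all genes. The 35 inducible and constitutive genes were above the floor on all 6 arrays. A gene is counted as higher or lower in a comparison when its signal differed at least 1.5-fold.

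The proteasome degrades proteins tagged with ubiquitin. Its 20S core is a barrel of stacked rings, the outer ones built of alpha subunits (Psma genes) that gate the entrance and the inner ones of beta subunits (Psmb genes). The beta subunits Psmb5, Psmb6 and Psmb7 carry the chymotrypsin-like, caspase-like and trypsin-like sites. In cells exposed to interferon-gamma, newly assembled cores take up Psmb8 in place of Psmb5, Psmb9 in place of Psmb6 and Psmb10 in place of Psmb7, which gives the immunoproteasome and changes the peptides made for MHC class I. The 19S cap recognises, deubiquitinates and unfolds substrates with its ATPases (Psmc genes) and its other subunits (Psmd genes). PA28, made of Psme1 and Psme2, is another cap and is also induced by interferon-gamma.

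The stretches of 150 bases before the annotated start (the first listed, where a gene has several) are shown for some genes. These are the 4 inducible genes of the set and the constitutive partners Psmb5 and Psmb6. The remaining partner, Psmb7, had no entry. They are from RefSeq on GRCm38.p6, written 5′ to 3′ on the strand of the gene. Capitals mark matches, on either strand, to TTCNNNGAA, the site of STAT factors, or to TGACNNNGC, the antioxidant response element read by Nfe2l1 and Nfe2l2.
Psmb8, chr17:34198045-34198194, plus strand: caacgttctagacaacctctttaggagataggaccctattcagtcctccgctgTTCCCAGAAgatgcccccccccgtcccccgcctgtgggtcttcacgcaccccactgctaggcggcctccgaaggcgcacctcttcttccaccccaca
Psmb9, chr17:34187331-34187480, minus strand: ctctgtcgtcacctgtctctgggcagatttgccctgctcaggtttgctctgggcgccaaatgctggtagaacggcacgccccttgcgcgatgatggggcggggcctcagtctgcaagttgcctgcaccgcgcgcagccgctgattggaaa
Psmb10, chr8:105938393-105938542, minus strand: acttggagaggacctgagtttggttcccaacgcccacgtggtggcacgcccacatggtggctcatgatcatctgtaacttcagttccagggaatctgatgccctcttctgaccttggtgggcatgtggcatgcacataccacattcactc
Psme1, chr14:55578344-55578493, plus strand: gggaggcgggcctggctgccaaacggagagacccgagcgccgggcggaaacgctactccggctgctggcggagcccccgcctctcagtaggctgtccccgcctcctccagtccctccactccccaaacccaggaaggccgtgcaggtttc
Psmb5, chr14:54617996-54618145, minus strand: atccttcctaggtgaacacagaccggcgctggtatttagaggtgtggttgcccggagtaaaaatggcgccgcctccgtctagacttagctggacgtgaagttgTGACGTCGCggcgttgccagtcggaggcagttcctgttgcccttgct
Psmb6, chr11:70525207-70525356, plus strand: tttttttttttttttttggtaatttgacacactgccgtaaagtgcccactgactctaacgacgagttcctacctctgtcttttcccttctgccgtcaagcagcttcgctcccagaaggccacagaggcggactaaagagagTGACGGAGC

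In the 250 bases before each start the STAT letters were found for Psmb8 alone among the 5 inducible genes, as TTCCCAGAA from base 97 to base 89 before the start, and for 0 of 25 constitutive genes. They were present in 7.02% of all 32851 promoters. The antioxidant response letters were found for Psmb5, Psmb6, Psmc6 and Psmd12, that is 4 of 25 constitutive genes, for 0 of 5 inducible genes and in 10.2% of all promoters. No matches overlapped in the sequences shown. A missing match says only that these letters are absent from this window. Psmb1, Psmb2, Psmb7, Psmc3, Psmd3 and Psmd7 had no entry. In RefSeq's gene order on GRCm38.p6, Psmb9, Tap1, Psmb8 and Tap2 follow each other on chromosome 17, in the class II region of the MHC. Psme1 and Psme2 lie on chromosome 14 with Emc9 between them, and Psmb10 lies on chromosome 8.

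The comparison of untreated allograft with syngraft asks how proteasome transcripts differ between a graft met by alloimmunity and a graft that is not. All 4 inducible genes were far higher in the allograft, most 20S core genes were near 2-fold higher, 19S genes were mostly higher by less, and Psmb5 was level. Psmb9 had the largest difference of any member, 12.2-fold. Psma5, the core subunit furthest above the syngraft, differed 2.47-fold. The plot of signals by array shows the separation between the inducible genes and their partners.

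Psmb8 had a signal of 346 in the syngraft, 2975 in the untreated allograft, 821 with CsA, 2576 with BH4, 2723 with ABH4 and 2621 with NIL. The untreated allograft was 8.59-fold above the syngraft, and only CsA lay nearer to the syngraft than to the untreated allograft on the linear scale. Psmb9 had signals of 214, 2602, 747, 2110, 2295 and 2317 in the same order of arrays. The syngraft was the lowest array for both genes, CsA came next, and the remaining 4 allografts lay close together. Psmb10, the inducible counterpart of the trypsin-like subunit, had signals of 434, 3649, 1244, 3276, 2953 and 3127. It was 8.41-fold above the syngraft without treatment. Psme1, the alpha chain of PA28, had signals of 758, 3330, 1435, 2819, 2770 and 2429 and was 4.39-fold above the syngraft. Its syngraft signal was the highest of the 4 inducible genes, but levels of different probe sets are not comparable.

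**Figure D1:**
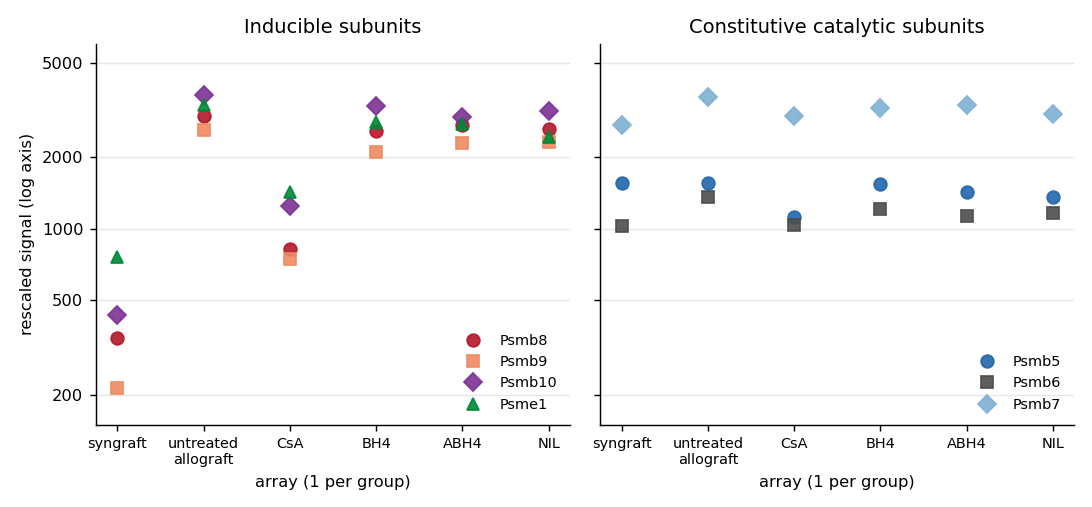
Rescaled signal (log axis) of 4 inducible genes (left) and of the constitutive catalytic genes they replace (right) on 6 arrays, 1 point per array and no error because no group has a replicate. The inducible genes are lowest in the syngraft (214 to 758), intermediate with CsA (747 to 1435) and between 2110 and 3649 on the other arrays, while Psmb5, Psmb6 and Psmb7 stay within a much narrower range.

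The constitutive partners behaved differently. Psmb5 had signals of 1567 in the syngraft, 1560 in the untreated allograft, 1124 with CsA, 1544 with BH4, 1435 with ABH4 and 1362 with NIL. Its allograft and syngraft signals were nearly equal, a log2 difference of -0.01, which was -0.19 with no rescaling and -0.23 with quantile normalization. Psmb6 had signals of 1028, 1360, 1041, 1217, 1130 and 1167, and Psmb7 had 2746, 3601, 2986, 3214, 3324 and 3034. Both were highest in the untreated allograft, 1.32-fold and 1.31-fold above the syngraft, and neither reached 1.5-fold. The ratio of inducible to constitutive signal within an array does not depend on a common scaling factor. Between syngraft and untreated allograft that ratio was 8.64-fold higher for Psmb8 over Psmb5, 9.18-fold higher for Psmb9 over Psmb6 and 6.42-fold higher for Psmb10 over Psmb7. After quantile normalization the log2 shifts were 3.09, 3.25 and 2.67, against 3.11, 3.20 and 2.68.

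Counted as higher in the untreated allograft were 4 of 4 inducible genes and 18 of 31 constitutive genes, against 15.4% of all 12393 genes. Counted as lower were 0 of either set, against 11.9% of all genes. Of the 8631 genes above the floor on both arrays, 1672 were higher and 1106 lower. The median log2 difference was 3.09 for the inducible and 0.66 for the constitutive genes, beside 0.00 for all genes and 0.10 for the 8094 genes above the floor on every array. Among the 8631 genes above the floor on both arrays, Psmb9 ranked 21st, Psmb8 37th, Psmb10 38th and Psme1 129th from the highest difference. The deposited medians of the compared arrays differed by -0.19 on the log2 scale, which the rescaling removed. Without rescaling 13 constitutive genes were higher, and after quantile normalization 10.

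Within the constitutive set the 20S genes other than the partners had a higher median than the 19S genes, with some overlap. All 11 core genes other than the partners were higher, with a median of 0.93 and a range from 0.76 (Psmb2) to 1.31 (Psma5), and 10 of 11 were still higher after quantile normalization. In the alpha ring the lowest member was Psma6 (1.82-fold). Psma1, Psma4 and Psma7 differed 2.17-fold, 2.08-fold and 2.14-fold, and Psma2 and Psma3 1.95-fold and 1.88-fold. Of the beta genes that have no inducible substitute, Psmb3 was highest (1.91-fold) and Psmb2 lowest (1.69-fold). Psmb1 had signals of 947 in the syngraft and 1674 in the untreated allograft, and Psmb4 had 1205 and 2185.

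All 17 19S genes were above the syngraft, against 58.3% of the genes above the floor on every array. But 7 of the 17 reached 1.5-fold, and the median of the 17 was 0.55. Of the ATPases 4 of 6 were higher, from Psmc6 (1.76-fold) down to Psmc5 (1.32-fold), and Psmc2, Psmc3 and Psmc4 were 1.74-fold, 1.52-fold and 1.58-fold higher. Of the non-ATPase subunits 3 of 11 were higher: the deubiquitinase Psmd14 (1.79-fold), Psmd3 (1.65-fold) and Psmd12 (1.54-fold). The scaffold subunits Psmd1 and Psmd2 were at the low end, with 1.29-fold and 1.30-fold. After quantile normalization no 19S gene reached 1.5-fold, although all 17 kept a difference above 0 (median 0.28). Psmd8, Psmd11 and Psmd13 were 1.45-fold, 1.46-fold and 1.37-fold higher, under the threshold. In the plot by class the cap genes overlap both the lower end of the core genes and the upper end of the partners.

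**Figure D2:**
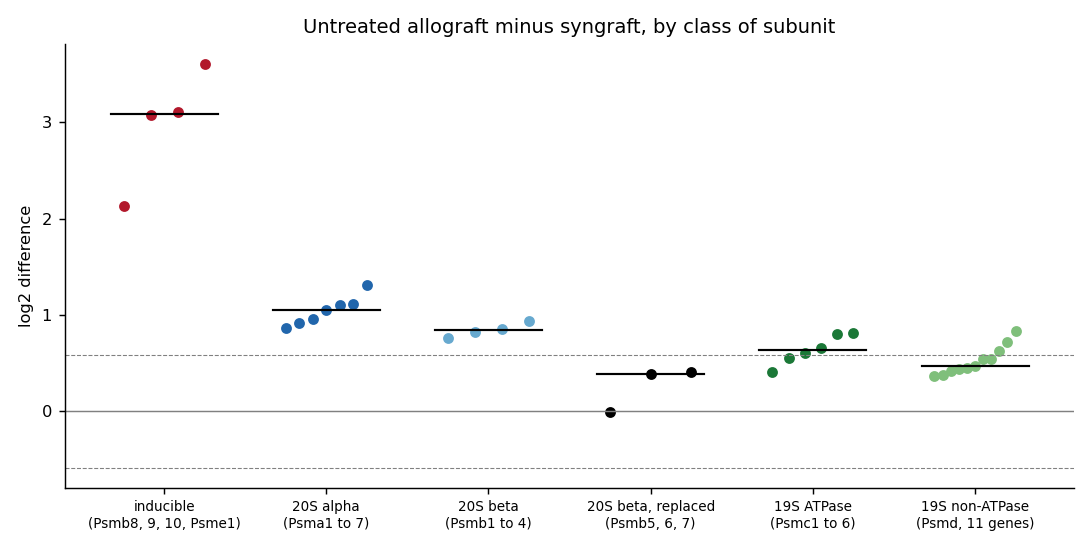
Log2 difference of untreated allograft minus syngraft for 35 proteasome subunit genes by class, 1 point per gene, with a bar at the class median and dashed lines at 1.5-fold. The inducible genes lie between 2.14 and 3.60, the 11 core genes that are not replaced between 0.76 and 1.31, Psmb5, Psmb6 and Psmb7 between -0.01 and 0.40, and the 19S genes between 0.36 and 0.84; no error can be drawn with 1 array per group.

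A second probe set was present for several subunits and mostly ran the same way. Of the 59 probe sets of constitutive genes 48 were above the floor on both arrays, 45 of these had a difference above 0, and 30 were at least 1.5-fold higher. The 48 include the brightest probe set of each of the 31 genes, of which 30 had a difference above 0 and 18 were at least 1.5-fold higher. The counts thus partly repeat the values of the genes. Another probe set of Psma5 gave 1.51 on the log2 scale, against 1.31, and one of Psmc4 gave 1.34 against 0.66. A dim Psma6 probe set ran the other way, with 80.6 in the syngraft and 58.6 in the untreated allograft (-0.46 against 0.86 for the brightest). With CsA it gave 0.42 against -0.64. One of Psmd13 was level, at -0.003 against 0.45. One Psmd4 probe set also ran the other way, with a signal of 156 in the syngraft and below the floor in the untreated allograft. The brightest of Psmd4 had 881 and 1176. The same Psmd4 probe set read 54.0 with BH4 and 98.4 with ABH4, above the untreated allograft, where the brightest gave log2 differences of -0.17 and -0.06. A Psmb1 probe set below the floor in the untreated allograft gave 0.95 with ABH4 against -0.12, and a dim one of Psmd11 gave -0.66 with BH4 against 0.06. One Psmd6 probe set read 364 in the untreated allograft and near the floor in the syngraft, a log2 difference of 3.34 against 0.44 for the brightest. Psmd4 encodes a ubiquitin receptor and Psmd6 a subunit of the lid, and the reason for these disagreements between probe sets was not tested.

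Outside the constitutive set, Psme3, which forms the nuclear PA28 gamma ring, was 1.76-fold higher in the untreated allograft. Psme4, the PA200 activator, was level, with signals of 1187 in the syngraft and 1118 in the untreated allograft. Of the assembly chaperones of the 19S base, Psmd10 was 1.68-fold higher at low signals (71.0 and 119), Psmd5 1.34-fold, and Psmd9 had 140 and 136. Psma8, an alpha subunit of the testis, was at the floor on all 6 arrays. Of the 2 genes caught by symbol that are not subunits, Psmc3ip was dim (67.8 and 56.9) and Psme3ip1 had 274 and 327.

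The other genes of the pathway gave a similar gradation. Over all genes 15.4% were higher in the untreated allograft and 11.9% lower. Of 11 measured assembly and associated factors 7 were higher and 0 lower, with a median of 0.72. They included the deubiquitinase Usp14 (2.50-fold), the assembly chaperone Psmg2 (2.31-fold) and Pomp, the maturation factor of the core (1.94-fold), whose signals were 1258 and 2435. Sem1, a small subunit of the lid, had 1536 and 1460. Of 4 measured genes of ubiquitin shuttling 1 was higher, Rad23b (1.55-fold). Nfe2l2 was 2.42-fold higher while Nfe2l1, the factor that drives the recovery of proteasome genes after inhibition, had signals of 1109 and 925.

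Peptide transport and loading genes, which take up proteasome products, had 6 of 9 members higher, none lower, and a median of 1.42. Tap1, the peptide transporter gene between Psmb9 and Psmb8, was 10.7-fold higher and Tap2, on the other side of Psmb8, 3.67-fold. Of the interferon-gamma signal genes 6 of 9 were higher too, beside 15.4% of all genes. Ifng was at least 16.8-fold and its target Irf1 5.43-fold higher, while the receptor chain Ifngr1 had 514 in the syngraft and 350 in the untreated allograft. All 4 measured genes of interferon-induced ubiquitin-like modifier pathways were higher: Ubd (20.7-fold), Usp18, Uba7 and Ube2l6. Of these, Ubd encodes a modifier, which targets proteins directly to the proteasome.

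The marker lists of cells in the graft went different ways between the same arrays. The T cell markers summed to 209 in the syngraft, where all 6 were at the floor, and to 1684 in the untreated allograft, where Cd4 remained at the floor. Cytotoxic lymphocyte markers (5 genes) summed to 246 and 6686, macrophage and monocyte markers (6 genes) to 7639 and 8095, and cardiomyocyte markers (6 genes) to 32850 and 31920. Of the macrophage list 2 of 6 were higher and 0 lower: Msr1 (145 and 838) and Itgam (103 and 249). Lyz2, the brightest of that list, had 4222 and 3687. Fibroblast markers (6 genes) summed to 25130 and 4817, endothelial markers (5 genes) to 1374 and 787, dendritic cell markers (3 genes) to 305 and 498 and erythroid markers (2 genes) to 597 and 263. B and plasma cell markers (4 genes) summed to 396 and 665, a higher sum that came from Jchain (225 and 534), since Cd79a, Cd79b and Ms4a1 were each lower and the median log2 difference was -0.35. In bulk tissue a different number of cells of a type and a different amount of RNA per cell cannot be told apart, and the part of cell makeup in the proteasome differences was not tested.

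The comparison of the CsA allograft with the untreated allograft asks how the same genes stood under calcineurin inhibition. The inducible genes were lower with CsA yet stayed above the syngraft, and most constitutive genes came back near the syngraft level. Psmb8 was 3.62-fold, Psmb9 3.48-fold, Psmb10 2.93-fold and Psme1 2.32-fold lower than in the untreated allograft. Against the syngraft they remained 2.37-fold, 3.49-fold, 2.87-fold and 1.89-fold higher. Both comparisons use the same CsA array, and no CsA replicate exists.

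Counted as lower with CsA were 4 of 4 inducible genes (median -1.68) and 12 of 31 constitutive genes (median -0.52), against 12.2% of all genes. Counted as higher were 0 of either set, against 9.31% of all genes. Of the 8723 genes above the floor on both arrays, 1355 were lower and 851 higher. For the constitutive genes 30 of 31 differences were below 0, against 61.3% for the 8094 genes above the floor on every array, whose median was -0.13. Here the rescaling removed a difference of 0.19 between the array medians. With the values as deposited 5 constitutive genes were lower, and with quantile normalization 4, where 27 of 31 differences were below 0.

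The class order seen in the untreated allograft was mirrored. Core genes other than the partners had a median of -0.72, with 7 of 11 lower, the 19S genes -0.46, with 5 of 17 lower, and the partners -0.39, with 0 of 3 lower. The untreated allograft array enters both comparisons, so the mirror is no independent observation. Psma4 was furthest below (1.96-fold, signals of 896 with CsA and 1758 without), and Psma3 was the alpha gene that differed least (1.49-fold). Psma1, Psma2, Psma5, Psma6 and Psma7 were 1.72-fold, 1.65-fold, 1.70-fold, 1.56-fold and 1.81-fold lower. Psmb1 was 1.81-fold and Psmb3 1.36-fold lower. The other 2 Psmb1 probe sets were much dimmer, and with the mean over all probe sets the log2 difference of Psmb1 was -0.02 in place of -0.86.

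In the cap, the ATPase Psmc6 was 1.85-fold and Psmc5 1.33-fold lower. Psmc2 and Psmc3 were lower by 1.69-fold and 1.55-fold, and Psmd12 by 1.56-fold. Psmd14 just passed the threshold, at a log2 difference of -0.59. Psmd2 was the exception, with signals of 1731 with CsA and 1699 without. Of 48 constitutive probe sets above the floor on both arrays, the brightest of each gene among them, 20 were lower and 0 higher. A dimmer one of Psmc4 gave -1.57 against -0.46 for the brightest, and one of Psmd11 gave -1.05 against -0.25. Psme3 was 2.77-fold lower and stood 1.57-fold below the syngraft, with signals of 154, 427 and 243, while its next brightest probe set differed by -0.61 from the untreated allograft and by 0.12 from the syngraft. Psmd10 was 1.68-fold lower at low signals. Psme3ip1, which is no subunit, was 1.81-fold lower, and Psmc3ip was at the floor with ABH4 and NIL.

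Against the syngraft, the inducible genes remained higher in the CsA graft, and the constitutive genes were within 1.5-fold. All 4 inducible genes were higher (median 1.38), against 6.83% of all genes, and 0 of 31 constitutive genes were (median 0.15). Of the 31, 24 were nevertheless above the syngraft, with 10 of 11 core genes other than the partners (median 0.24) and 12 of 17 19S genes (median 0.08), beside 48.6% of the genes above the floor on every array. None of the 35 genes was lower by 1.5-fold, against 5.84% of all genes. Psma5 came closest to the threshold (1.46-fold higher), and Psmb5 was 1.39-fold lower. The ratio of Psmb8 to Psmb5 was 3.30-fold, of Psmb9 to Psmb6 3.45-fold and of Psmb10 to Psmb7 2.64-fold above the syngraft.

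Some related genes, but not all, were lower with CsA than in the untreated allograft. Over all genes 12.2% were lower. Peptide transport and loading genes were lower in 5 of 9, with Tap1 2.02-fold and Tap2 2.78-fold lower, and assembly factors in 4 of 11, with Uchl5 1.81-fold, Usp14 1.80-fold and Pomp 1.69-fold lower. Ifng was 5.72-fold lower at a signal of 102 and Irf1 1.93-fold lower, among 3 of 9 interferon-gamma signal genes that were lower. Ifngr1 and Ifngr2 had differences above 0 (0.43 and 0.15), and Jak2 had -0.10. Of the modifier pathway genes 3 of 4 were lower. Of the regulators of proteasome transcription 1 of 3 was lower, Nfe2l2, and of the ubiquitin shuttling genes 0 of 4. Against the syngraft, 6 of 9 interferon-gamma signal genes and 4 of 4 modifier pathway genes remained higher with CsA, beside 6.83% of all genes. Among the markers, the T cell list summed to 271 with CsA, with Cd3d, Cd3e, Cd2 and Cd4 at the floor. The cytotoxic list summed to 716, the macrophage list to 7578 and the fibroblast list to 21690. Within the macrophage list 2 of 6, Msr1 (5.02-fold) and Itgam (1.93-fold), were lower than in the untreated allograft and 0 higher. The part of these markers in the CsA differences was not tested.

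The comparisons of BH4, ABH4 and NIL with the untreated allograft ask whether compounds that act on nitric oxide synthesis altered the same transcripts. With each of these 3 compounds, all 4 inducible genes stayed within 1.5-fold of the untreated allograft. With BH4 Psmb9 differed most, by -0.30 on the log2 scale, and with ABH4 Psmb10, by -0.31. With NIL Psme1 differed most, by -0.46, with a signal of 2429 against 3330. All 3 arrays share the untreated allograft as reference, so a high value on that single array would lower every difference at once.

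The constitutive genes with BH4 all lay within 1.5-fold, with a median of -0.12 and a range from -0.37 (Psmc6) to 0.16 (Psmd7). Over all genes 4.9% were higher and 3.35% lower by that fold. With ABH4 all 31 lay within 1.5-fold too, with a median of -0.12 and a range from -0.39 (Psmc6) to 0.30 (Psmd7), where 3.22% of all genes were higher and 2.49% lower. The BH4 array had by far the highest signals of salivary gland transcripts (3 markers summing to 10210 against 151 to 343 elsewhere). Against the untreated allograft, Wfdc18 was also higher with NIL (3.09-fold, 252 against 81.7) and with CsA (1.97-fold). Bpifa2 was 1.62-fold higher with NIL, at 56.2 against the floor, and Smr3a was at the floor on every array but BH4. Fibroblast markers summed to 17110 with BH4, 9443 with ABH4 and 4315 with NIL, against 4817 without treatment, and 6 of 6 were higher with BH4 and with ABH4. Cytotoxic lymphocyte markers were lower in 3 of 5 with BH4 and in 0 of 5 with ABH4 and with NIL. Jchain was 3.44-fold higher with ABH4 and 3.09-fold higher with NIL. The part of any of these markers in the proteasome values was not tested.

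With NIL the constitutive genes had a median of -0.31, beside -0.11 for genes above the floor on every array. All 31 had a difference below 0, against 63.1% of the genes above the floor on every array. One of the 31, Psmd12, was lower by 1.58-fold, against 5.33% of all genes, and none was higher, against 6.37%. Of 47 constitutive probe sets above the floor on both arrays, the brightest of each gene among them, 3 were lower and 0 higher. They included dimmer ones of Psmc4 (-1.30, signals of 266 without treatment and 109 with NIL) and Psmc6 (-0.72). The ATPases formed the lowest class, with a median of -0.52 and a range from -0.55 (Psmc1) to -0.27 (Psmc5). Psmc1 had a signal of 451 with NIL, 662 in the untreated allograft and 452 in the syngraft, so NIL was level with the syngraft for this gene. The NIL signals of Psmc2, Psmc3, Psmc4 and Psmc6 were 1168, 956, 573 and 1098, each between the syngraft and the untreated allograft. After quantile normalization the ATPase median was -0.32 and 26 of 31 constitutive differences were below 0.

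Outside the constitutive set, Psme3 was 1.69-fold lower with NIL than in the untreated allograft, at a signal of 253, against 397 with BH4 and 349 with ABH4. Its next brightest probe set gave log2 differences of -0.35 with NIL, -0.31 with BH4 and -0.20 with ABH4. Psme4 had signals of 846 with NIL, 1118 without treatment, 1334 with BH4 and 1124 with ABH4, and its NIL signal was the lowest of the 6 arrays. The other Psme4 probe sets gave -0.59 and -0.51 for NIL against the untreated allograft. Usp14, which works on the 19S cap, was 1.94-fold lower with NIL, at 256 against 499, and Psmg2 1.67-fold. These were 2 of 11 assembly and associated factors lower with NIL, against 5.33% of all genes. With BH4 1 of 11 was lower, Psmg2 (1.73-fold), and with ABH4 0 of 11, against 3.35% and 2.49% of all genes. With NIL 1 of 4 modifier pathway genes was lower, Usp18 (1.98-fold), and 1 of 9 interferon-gamma signal genes, Socs1 (1.60-fold). Ube2l6, Irf8, Jak2 and Ubd had differences above 0 (0.42, 0.14, 0.11 and 0.09). With ABH4 1 of the 4 modifier pathway genes was higher, Ube2l6 (1.69-fold), against 3.22% of all genes. No gene of the peptide transport list differed 1.5-fold with BH4, ABH4 or NIL. No replicate of the NIL graft exists to set these differences against.

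ABH4 and BH4 differ by the amino group at the 4 position of the pteridine and were given at the same dose and interval, which allows 1 matched pair to be compared. The constitutive genes had a median log2 difference of 0.00 for ABH4 minus BH4, and ranged from -0.18 (Psmc3) to 0.21 (Psma7). The inducible genes ranged from -0.15 (Psmb10) to 0.12 (Psmb9). None of the 35 genes differed 1.5-fold, where 3.24% of all genes were higher and 4.11% lower with ABH4. Psmd10 was 1.61-fold higher with ABH4, at signals of 147 and 91.6. With 1 array each no interval of the difference can be given, so these values do not show that the compounds act alike. CsA and NIL were given at other doses, so their values beside those of BH4 and ABH4 are no comparison at matched dose.

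**Figure D3:**
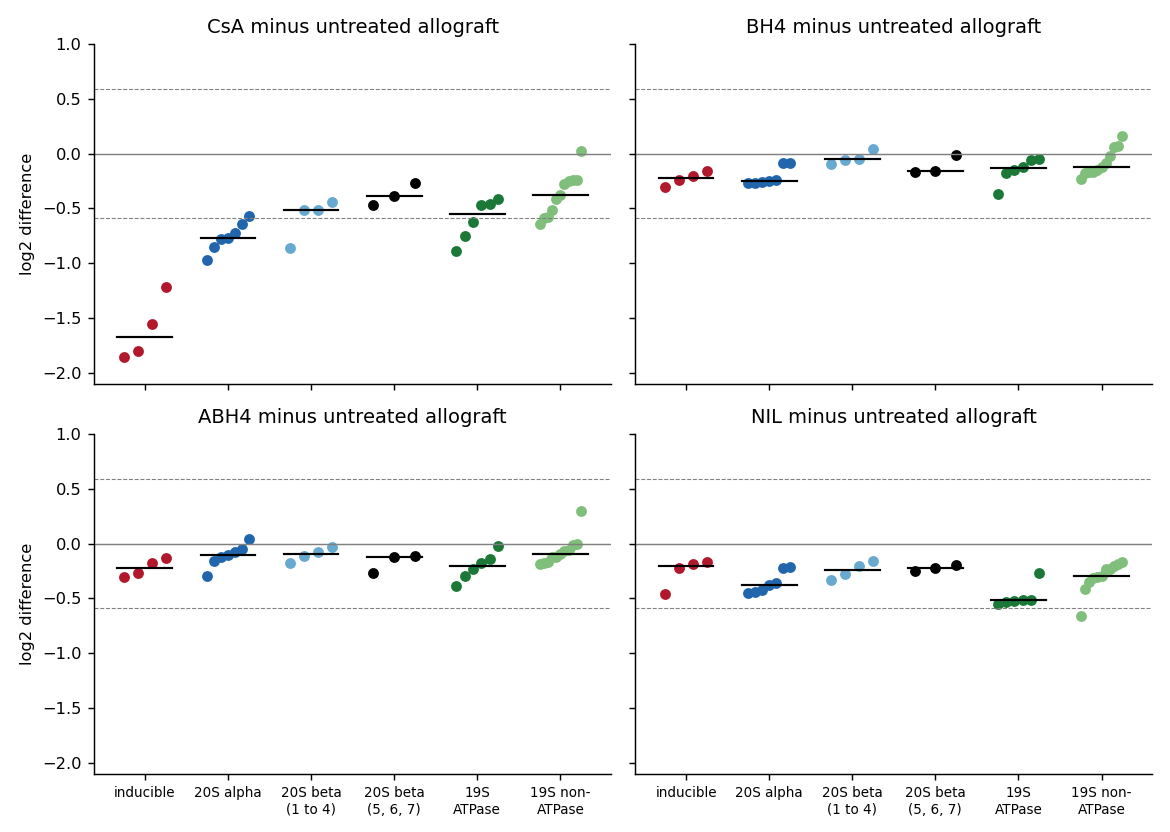
Log2 difference of each treated allograft minus the untreated allograft for the 35 subunit genes by class, 1 point per gene, with a bar at the class median and dashed lines at 1.5-fold. With CsA the inducible genes lie between -1.86 and -1.21 and apart from every other class, whereas with BH4, ABH4 and NIL they lie between -0.46 and -0.13, and with NIL the 19S ATPases have the lowest class median (-0.52).

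Across the 6 arrays the untreated allograft had the highest signal for all 4 inducible genes and for 24 of 31 constitutive genes. The syngraft had the lowest for 4 of 4 and for 22 of 31, CsA for 6 of 31 and NIL for 3 of 31. CsA lay between syngraft and untreated allograft for 23 of 31 constitutive genes, BH4 for 26, ABH4 for 28 and NIL for 27. The median log2 difference of the constitutive genes from the syngraft was 0.66 without treatment, 0.61 with BH4, 0.53 with ABH4, 0.30 with NIL and 0.15 with CsA. For the inducible genes the same medians were 3.09, 2.91, 2.87, 2.89 and 1.38. BH4, ABH4 and NIL thus lay close together for the inducible genes, whereas the constitutive median was lowest of the 3 with NIL. After quantile normalization that order was lost, with constitutive medians against the untreated allograft of -0.11 with NIL, -0.12 with BH4 and -0.04 with ABH4. The heat map shows this array by array.

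**Figure D4:**
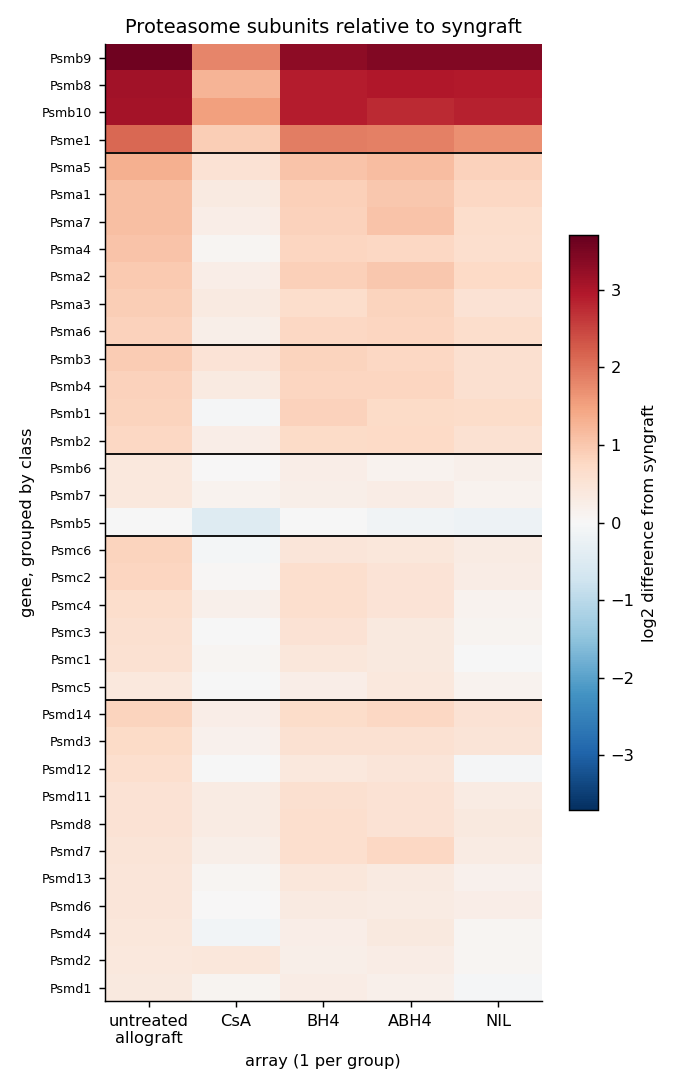
Log2 difference from the syngraft of 35 proteasome subunit genes (rows, grouped by class with black lines between classes and sorted by the untreated allograft) on 5 allograft arrays (columns, 1 per group). Red marks genes above and blue below the syngraft on a scale shared by all cells; the inducible genes form the darkest block, the CsA column is the palest, and Psmb5 is at or below the syngraft on all 5 allografts.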

How the data were processed

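The authors deposited 1 signal intensity per probe set for 22690 probe sets on each of 6 arrays. The deposited intensities were linear, and every array's mean after trimming 2% from each end was 200.1, so they had been scaled to a common level. How probes were summarised and corrected is not given in the sources used here. Arrays were brought to one median over the 22626 probe sets that are not controls, the mean of the 6 array medians (log2 shifts of -0.09 to 0.10). Signals under the 30th percentile (34.8) were raised to it before taking log2. Probe sets were named by the platform annotation. A gene took its brightest of 20380 single-gene probe sets; 691 probe sets of several genes and 1555 without a gene were left out. All 43 symbols matched RefSeq.

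With 1 array per group no test was possible, and the number of arrays limits the precision. Differences are log2(first array) minus log2(second array), and lists are given by counts and medians beside the same over all genes. The genes named were all members, the highest and lowest of each class in the allograft and CsA comparisons, members past 1.5-fold, and those with probe sets of opposite sign. Members, lists, comparisons and the rule for named genes were chosen with earlier results of these data known. Motifs were chosen after the expression values were seen, and matches to the interferon-stimulated response element, also searched, are not reported here. The procedure was tested on simulated data. Alternatives were the values as deposited, quantile normalization, averaging a gene's probe sets, floors at percentiles 10 and 50 and, added after seeing the data, scaling and floor without the BH4 array. Python 3.11.15, pandas 2.3.3 and numpy 2.4.6 were used.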

Additional observations from a re-analysis of the deposited data

Results flagged for a closer look

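One probe set outside the comparisons carried a signal of the same kind as the inducible genes. It is listed for both Psme2 and Psme2b and therefore stands for neither gene alone. Its signals were 470 in the syngraft, 2554 in the untreated allograft, 1165 with CsA, 2320 with BH4, 2377 with ABH4 and 2213 with NIL. The log2 difference of untreated allograft minus syngraft was 2.44, and that of CsA minus untreated allograft was -1.13. Which of the 2 genes gave the signal was not tested.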

How the results depend on the processing

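The 51 counts, medians and pair shifts were recomputed 294 times, and 287 of these values stayed within the margins used here. The margins were 1.5 times for counts, and a 1.5-fold shift with no change of sign past 1.5-fold for log2 values. The floors at percentiles 10 and 50 (51 values each) and the scaling without the BH4 array (39 values) could not move these results. All inducible and constitutive genes lay above every floor, and a common change of scale cancels in a difference between arrays. The 7 values that moved came from the deposited values (2), quantile normalization (3) and the mean over probe sets (2). The count of constitutive genes higher in the untreated allograft went from 18 to 10 after quantile normalization. The count lower with CsA went from 12 to 5 on the deposited values and to 4 after quantile normalization. The count lower with NIL went from 1 to 0 under both of these and to 2 with the mean over all probe sets. That mean also raised the count higher with CsA than in the syngraft from 0 to 1, through Psmd6. No difference past 1.5-fold changed sign. Of 1640 recomputed values of single genes 1633 stayed within the margins, and the 7 others came from the mean over probe sets, as with Psma1 (0.37 in place of 1.11) and Psmd4 (-0.19 in place of 0.42) in allograft minus syngraft. Neither other floor moved a value beyond the margin. For single inducible and constitutive genes neither these floors nor the scaling without the BH4 array could do so, for the same reasons. No paired analysis was possible because each group has a single array.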
